A study of Mus musculus with 30 samples.

Results

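The 10 genes described here carry glucose into the cell and down the glycolytic pathway. They were chosen by name, with earlier results of these data known: Slc2a1, Hk1, Hk2, Pfkp, Aldoa, Pgk1, Eno1, Pkm, Ldha and Pdk1. All 10 were found in each of the 4 bulk count tables, out of 58969 distinct gene symbols, and in both single-cell matrices, and all 10 passed the filter on low counts in every table. Slc2a1 encodes the glucose transporter GLUT1. The hexokinases Hk1 and Hk2 trap glucose as glucose 6-phosphate, and Pfkp is the platelet-type phosphofructokinase, which catalyses the committed step. Aldoa encodes aldolase A, the enzyme of the next step. Pgk1, Eno1 and Pkm encode phosphoglycerate kinase, enolase and the muscle-type pyruvate kinase of the lower pathway. Ldha turns pyruvate into lactate, and Pdk1 is a kinase that inhibits pyruvate dehydrogenase and so keeps pyruvate out of the mitochondrial citrate cycle. As background, most of these genes are textbook targets of the hypoxia-inducible factors (HIF), which bind the core letters ACGTG or GCGTG. Cardiac muscle shifts at birth from glucose towards fatty acids as its fuel, whereas cultured fibroblasts and other dividing cells use glycolysis heavily.

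The cells were primary cardiac fibroblasts (CFs) from wild-type mice, with n = 2 libraries in each bulk group. CFs without a transgene came from neonatal hearts (postnatal day 1 to 3) and from hearts aged 3, 12 and 24 months, and had been in culture for 3 days. In a second table, cells from neonatal, 3-month-old and 18-month-old hearts carried LacZ, a control gene, or MGT, and were collected at day 3. MGT stands for Mef2c, Gata4 and Tbx5, transcription factors that turn fibroblasts towards a cardiomyocyte state. Neonatal CFs carried the control OECtrl or an overexpressed Nr4a3, an orphan nuclear receptor gene (OENr4a3), and are labelled day 10. Cells from 3-month animals carried MGT with a non-targeting hairpin (shNT) or a hairpin against Nr4a3 (shNr4a3), and are labelled day 7. Reprogrammed neonatal and 24-month cells were also read as single cells, with 1 library per age. The labels give neither sex, vector nor promoter. Nor do they tell if the 2 replicates of a group came from different mice or dishes, so a p-value here reflects the spread among libraries, which may be technical.

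Library depth ranged from 14275501 to 43448379 counts, and the replicates of each of the 14 groups differed by more than sampling noise (chi-square per degree of freedom 2.29 to 24.17). The labels could be checked on the manipulated genes. Nr4a3 stood at 2.49 and 1.85 CPM (counts per mega-count of library size, scaled between libraries) in OECtrl and at 175 and 178 CPM in OENr4a3, and at 8.84 and 8.18 CPM in shNT against 0.431 and 0.744 CPM in shNr4a3. Tbx5 rose with MGT at every age, by 6.78 to 8.80 on the log2 scale. In the overexpression libraries Tbx5 was at 1.2 to 2.84 CPM, against 163 CPM or more in the knockdown libraries, and their labels name no MGT. All 8 fibroblast markers checked, among them Col1a1, Pdgfra and Tcf21, had counts in every bulk library. Markers of cardiomyocytes were also present in neonatal CFs, where the 8 summed to 1130 and 1050 CPM, against 18.9 to 43.1 CPM in CFs of the older ages. In a bulk sample, fewer cells of a type and less RNA per cell cannot be told apart.

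The promoters of 4 members that stand for the transporter, the lower pathway and its exit are shown; all 4 were called up in 24-month against 3-month CFs and down in 18-month against 3-month LacZ cells, and were picked with those values known. Each run is the 250 bases before the first start site that RefSeq lists (GRCm38.p6), written 5′ to 3′ on the strand of the gene, with every ACGTG or GCGTG on either strand in capitals.
Slc2a1: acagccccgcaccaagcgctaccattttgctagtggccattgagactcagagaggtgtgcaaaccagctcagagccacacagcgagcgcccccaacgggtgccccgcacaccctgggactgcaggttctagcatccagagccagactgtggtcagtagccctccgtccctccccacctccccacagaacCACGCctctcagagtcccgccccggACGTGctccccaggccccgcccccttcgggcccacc
Pgk1: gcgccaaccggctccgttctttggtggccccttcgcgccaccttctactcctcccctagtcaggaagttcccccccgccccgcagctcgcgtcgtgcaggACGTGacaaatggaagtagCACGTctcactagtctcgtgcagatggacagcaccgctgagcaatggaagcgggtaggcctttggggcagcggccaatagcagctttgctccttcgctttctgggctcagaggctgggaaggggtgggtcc
Ldha: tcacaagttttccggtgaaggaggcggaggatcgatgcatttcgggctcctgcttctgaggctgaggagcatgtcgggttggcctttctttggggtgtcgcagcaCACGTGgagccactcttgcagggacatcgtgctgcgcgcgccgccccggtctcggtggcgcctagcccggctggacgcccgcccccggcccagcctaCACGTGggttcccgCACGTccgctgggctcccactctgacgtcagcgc
Pdk1: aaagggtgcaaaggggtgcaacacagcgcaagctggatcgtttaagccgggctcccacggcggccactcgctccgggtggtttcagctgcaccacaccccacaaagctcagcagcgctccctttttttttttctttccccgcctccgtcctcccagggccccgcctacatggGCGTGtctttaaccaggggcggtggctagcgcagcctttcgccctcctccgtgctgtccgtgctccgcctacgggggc
These lie at chr4:119108495-119108744 (plus strand) for Slc2a1, chrX:106186850-106187099 (plus) for Pgk1, chr7:46845554-46845803 (plus) for Ldha and chr2:71872974-71873223 (plus) for Pdk1. The Ldha window held 5 matches, of which 2 pairs overlap because CACGTG reads the same on both strands. Slc2a1 and Pgk1 had 2 matches each, and Pdk1 had 1, 78 bases before the start. Each of the 10 members had a match before at least 1 of its listed start sites. By window, 14 of the members' 18 held one, beside 38.6% of the 32851 windows in the RefSeq table. The later Aldoa windows overlap each other and hold the same match, and the later Eno1 windows likewise share their matches. The share of all genes with a match was not computed. Hk1, Aldoa and Pkm had none before their first listed start. A match is a run of letters and not evidence of binding.

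Per kilobase of the deposited exonic length, Aldoa, Pgk1, Ldha, Pkm and Eno1 stood above the other 5 members in CFs of all 4 ages. In neonatal CFs the mean was 191 CPM per kb for Aldoa, 171 for Pgk1, 166 for Ldha, 164 for Pkm and 149 for Eno1, and these 5 neighbours lay close together. The next genes, Slc2a1 at 17.2, Hk1 at 16.0 and Hk2 at 10.2 CPM per kb, were far lower. Pfkp at 7.82 and Pdk1 at 3.02 CPM per kb were the lowest members on this scale. The order depends on the deposited length, which for Pfkp was 13401 bases here and 9395 bases for the knockdown libraries. In CPM not divided by length, neonatal Pfkp (105) stood above Slc2a1 (60.3) and Hk2 (60.7). In 24-month CFs Ldha (410 CPM per kb) and Pkm (407) led, and Pfkp at 6.99 was lowest, next to Pdk1 at 7.29. The other tables did not keep this order: Hk2 (38.1 CPM per kb) and Pgk1 (37.9) were level in 3-month MGT cells, Slc2a1 (30.5) was above Eno1 (28.3) with Nr4a3 overexpressed, and Hk1 (18.9) and Hk2 (12.3) were above Ldha (9.43) with it knocked down. Pgk1 and Eno1 have near-identical copies in the genome, and how reads shared between copies were counted is not given in the sources used here.

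CFs of 24-month hearts carried more mRNA of nearly the whole set than CFs of each younger age. The female-specific RNA Xist was high in neonatal and 24-month CFs and at most 0.479 CPM at 3 and 12 months. Age and sex therefore cannot be told apart where neonatal or 24-month CFs are compared with 3- or 12-month CFs. Between 3 and 24 months all 10 members rose, from 0.15 on the log2 scale for Hk2 to 0.70 for Pdk1, with a median of 0.55 beside 0.00 over all genes tested. Of all genes tested, 8.85% were called up and 9.47% down in that comparison (edgeR quasi-likelihood test, Benjamini-Hochberg adjusted p under 0.05, the threshold for every call here). From neonatal to 24 months 9 members rose and Pfkp fell, beside 27.9% of all genes called up and 26.6% called down. The call of Pfkp was lost without replicate 1 of the 24-month CFs (-0.08). That of Hk1 was lost with library size alone (0.108) and without replicate 2 of the neonatal (0.109) or 24-month CFs (0.095). The steps in between were uneven. From neonatal to 3 months 7 members rose and 2, Hk1 and Pfkp, fell (28% up and 24.4% down over all genes). The call of Hk1 (-0.11) was lost with DESeq2, without a filter on low counts, with a replicate block and without replicate 1 of the neonatal or any library of the 3- or 12-month CFs. For the next age, 12 months against neonatal, 7 rose and Pfkp fell (29.7% and 25.5%). From 3 to 12 months only Aldoa, Pkm and Ldha rose while Hk2 and Pdk1 fell (13% and 15.5%). The call of Aldoa was lost without either 12-month library. That of Pdk1 was lost without replicate 2 of the 12-month or either of the 3-month CFs, with DESeq2, with library size alone and with a replicate block. From 12 to 24 months 9 members rose, all except Aldoa, and none fell (10.8% and 8.07%), with 6 to 10 called when 1 library was left out. Markers of other cells differed between neonatal and older CFs: from neonatal to 24 months endothelial ones went from 1190 and 1170 to 77.9 and 98.7 CPM in sum, those of pericytes or smooth muscle from 912 and 909 to 115 and 120 CPM, and epicardial ones from 170 and 172 to 2.16 and 2.0 CPM. Their part in the members' values was not tested.

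Slc2a1, the transporter, passed the test at 24 months but not at 3 or 12 months against neonatal cells. It stood at 60.7 and 59.9 CPM in neonatal, 61.2 and 62.1 CPM in 3-month, 62.7 and 60.7 CPM in 12-month and 84.5 and 93.1 CPM in 24-month CFs. Both 24-month libraries lay above all 6 others, and the rise over 3 months was 0.53 ± 0.06 (log2, SE; edgeR adjusted p = 1.09e-08). Pgk1 and Eno1 made their largest step over the same interval, from 480 and 475 CPM to 656 and 760 CPM for Pgk1 (0.57 ± 0.07 from 12 to 24 months, edgeR adjusted p = 5.3e-05). Eno1 went from 980 and 977 CPM to 1310 and 1410 CPM (0.48 ± 0.04, edgeR adjusted p = 4.49e-10).

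Pkm and Ldha climbed at each age step. Pkm read 836 and 803 CPM in neonatal, 1390 and 1350 CPM in 3-month, 1840 and 1890 CPM in 12-month and 2010 and 2060 CPM in 24-month CFs, with no overlap between any 2 ages. Ldha read 584 and 515, 890 and 889, 1110 and 1090, and 1300 and 1420 CPM at the same ages, again without overlap. Between pairs of these ages, 55.4% to 76% of all genes did not overlap either. From neonatal to 24 months the difference was 1.31 ± 0.04 for Pkm (edgeR adjusted p = 2.12e-24) and 1.31 ± 0.05 for Ldha (edgeR adjusted p = 7.33e-19). Aldoa followed, from 598 and 515 CPM to 1040 and 1150 CPM (0.97 ± 0.07, edgeR adjusted p = 1.37e-07).

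The hexokinases followed different courses, and the difference between them was not tested. Hk2, the inducible form, stood at 63.3 and 58.0 CPM in neonatal CFs and at 117 and 119 CPM at 3 months, a rise of 0.96 ± 0.05 (edgeR adjusted p = 2.55e-16). It fell by 0.22 from 3 to 12 months and ended at 125 and 137 CPM. Hk1, the housekeeping form, stayed between 126 and 159 CPM in all 8 libraries. Pfkp was highest in neonatal CFs, at 104 and 106 CPM against 81.4 to 100 CPM in the 6 older libraries. Pdk1 rose late, from 32.0 and 27.1 CPM at 12 months to 51.9 and 61.5 CPM at 24 months (0.95 ± 0.09, edgeR adjusted p = 8.74e-10). For Hk2 the call between 24 and 3 months, and for Pfkp that between 24 and 12 months, was lost with DESeq2 and with scaling by library size alone, and the latter also lost that of Pkm between 24 and 12 months.

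**Figure D1:**
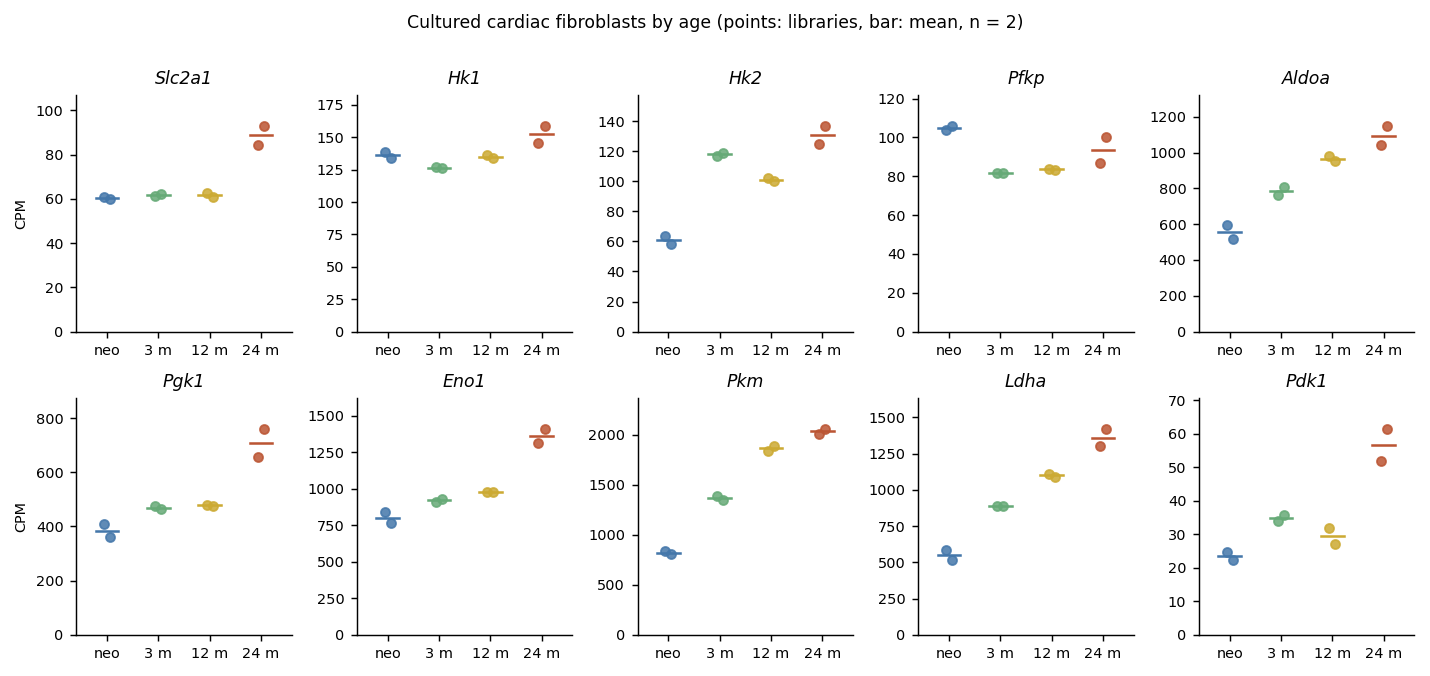
Levels (CPM) of the 10 members (one panel each, axis from 0) in CFs cultured from neonatal (neo), 3-, 12- and 24-month hearts; points are libraries and bars the mean of n = 2. Pkm and Ldha are higher at each later age, whereas Slc2a1 is higher at 24 months than at the other 3 ages and Pfkp is highest in neonatal cells.

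The steps of glycolysis that the 10 genes leave out moved the same way between 3 and 24 months. Gpi1 rose by 0.37, Tpi1 by 0.60, Gapdh by 0.40 and Pgam1 by 0.51 (log2), among 8 of 15 tested other glycolytic enzymes that rose and none that fell. Pfkl, the liver-type phosphofructokinase, rose by 0.74 and Slc16a3, the lactate exporter MCT4, by 1.03 ± 0.14 (edgeR adjusted p = 0.00151). Of 16 other HIF targets 10 rose and none fell, with Vegfa at 0.55. Of 17 citrate cycle genes none rose and 1 fell, with a median of 0.00. All 15 proliferation genes fell over the same ages, and their summed level was 1410 and 1360 CPM at 3 months and 839 and 745 CPM at 24 months. Endothelial markers summed to 132 and 190 CPM at 3 months and 77.9 and 98.7 CPM at 24 months, and macrophage markers to 133 and 154 against 217 and 208 CPM. The part of these cells in the members' levels was not tested. The female-specific RNA Xist was at 1280 and 1290 CPM in neonatal and 775 and 833 CPM in 24-month CFs, but at 0.286 to 0.479 CPM at 3 and 12 months. Age and sex thus cannot be told apart between 3 and 24 months, nor in other comparisons of neonatal or 24-month with 3- or 12-month CFs. Pgk1 lies on the X chromosome.

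The LacZ cells were read at 3 ages. From neonatal to 3 months 8 of 10 members rose and none fell, beside 15.1% of all genes called up and 15.8% down, but from 3 to 18 months none rose and 7 fell, beside 10.8% up and 12.2% down. Against neonatal cells 6 members were still called up at 18 months, and Pdk1 down (16.7% and 18.3% over all genes). MGT cells followed the same course: 8 members rose and none fell by 3 months (12.5% and 13.5%), none rose and Slc2a1, Hk2, Ldha and Pdk1 fell from 3 to 18 months (8.12% and 9.29%), and from neonatal to 18 months 5 rose and Pdk1 fell (14.4% and 16.2%). When 1 library was left out, that last comparison called 4 to 8 members. Xist was at 440 to 548 CPM in the 4 neonatal libraries of this table and at 0 to 0.568 CPM in the 8 older ones, so age and sex cannot be told apart in any comparison with its neonatal cells. Other cells differed there too: from neonatal to 3 months, in LacZ libraries, epicardial markers went from 772 and 708 to 8.7 and 9.37 CPM in sum, endothelial ones from 358 and 396 to 17.1 and 18.3 CPM and cardiomyocyte ones from 342 and 295 to 9.59 and 10.1 CPM. Their part in the members' values was not tested. The median of the members from 3 to 18 months in LacZ cells was -0.31, beside 0.00 over all genes. The ages differ from those of the CF table (18 and not 24 months), the 2 tables were scaled separately, and the LacZ cells carry a transgene, so the tables are set side by side and not compared.

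Pdk1 showed the largest fall. It stood at 16.9 and 15.9 CPM in neonatal, 42.6 and 38.6 CPM in 3-month and 5.27 and 9.45 CPM in 18-month LacZ cells. The ages did not overlap, nor did they for 61.9% of all genes between neonatal and 3 months. That share was 72% between neonatal and 18 months and 56.2% between 3 and 18 months. The fall of Pdk1 from 3 to 18 months was 2.47 ± 0.17 on the log2 scale (-2.47, edgeR adjusted p = 3e-11). MGT cells had -1.68 ± 0.18 (edgeR adjusted p = 2.47e-07), from 19.3 and 17.7 CPM to 5.84 and 5.69 CPM. Slc2a1 fell from 139 and 147 CPM to 96.2 and 85.9 CPM (-0.65 ± 0.09, edgeR adjusted p = 4.54e-06), close to its neonatal 89.2 and 93.7 CPM. Ldha fell from 1060 and 1230 CPM to 817 and 840 CPM (-0.47 ± 0.08, edgeR adjusted p = 8e-05). Hk2, Aldoa, Pgk1 and Eno1 fell by 0.29 to 0.37. Pkm did not pass the test, with 2020 and 2280 CPM at 3 months and 2070 in both 18-month libraries, and neither did Hk1 or Pfkp. Without either 18-month LacZ library, or without replicate 2 of the 3-month ones, 4 members passed instead of 7, with Pgk1 and Eno1 lost each time.

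HIF targets outside the set fell as well. Of 16, none rose and 11 fell in LacZ cells from 3 to 18 months, led by Bnip3 at -1.92 ± 0.10, and 11 fell in MGT cells. Hif1a itself, which encodes the oxygen-regulated HIF subunit, fell from 644 and 684 CPM to 257 and 298 CPM (-1.26 ± 0.09, edgeR adjusted p = 1.33e-11). Slc16a3 went from 101 and 95.5 CPM to 13.2 and 16.0 CPM (-2.75 ± 0.12, edgeR adjusted p = 2.65e-15), and Pfkl from 174 and 169 CPM to 63.5 and 70.9 CPM. Proliferation genes summed to 1600 and 1520 CPM at 3 months and 1790 and 1800 CPM at 18 months, and fibroblast markers to 16800 and 16000 against 8380 and 9470 CPM. Whether these differences bear on the members was not tested.

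**Figure D2:**
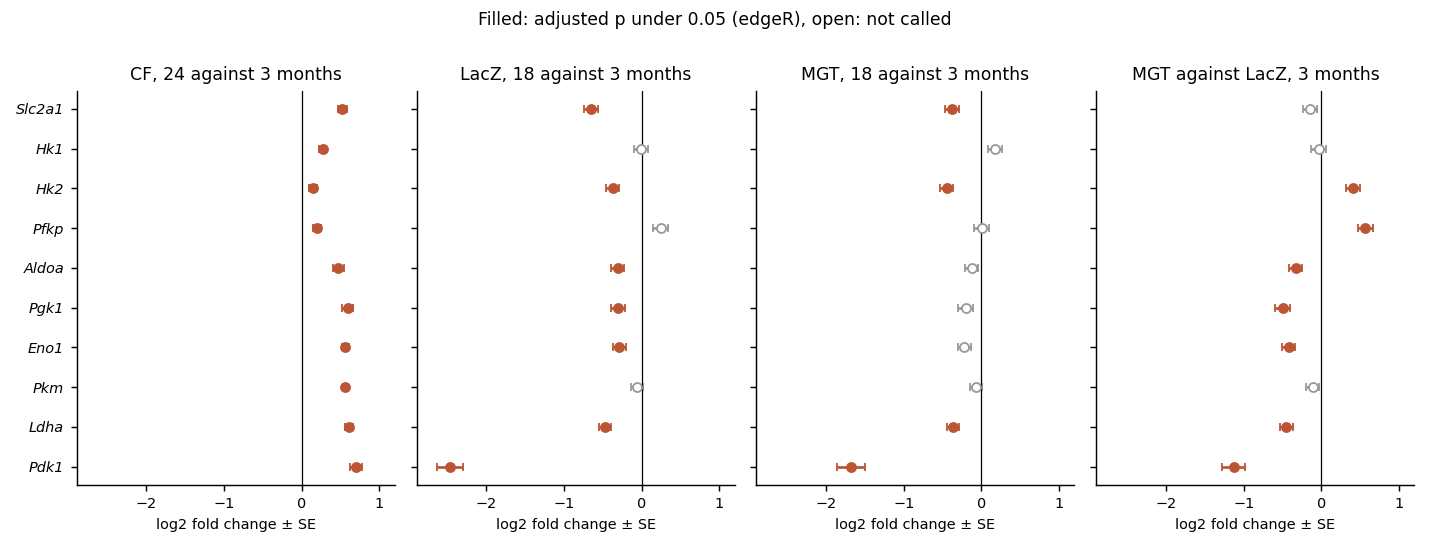
Log2 fold change ± SE of each member in 4 comparisons; filled points passed the edgeR test at an adjusted p under 0.05 and open points did not. All 10 points lie right of 0 for 24-month against 3-month CFs, whereas Pdk1 lies at -2.47 for 18-month against 3-month LacZ cells and at -1.68 for MGT cells.

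With MGT, members moved in both directions in cells of 3 and 18 months. At 3 months 2 members, Hk2 and Pfkp, rose against LacZ, and 5, Aldoa, Pgk1, Eno1, Ldha and Pdk1, fell, beside 8.99% of all genes called up and 8.39% called down. At 18 months the same 2 rose, and Pgk1, Eno1 and Ldha fell (8.52% up and 8.05% down over all genes). In neonatal cells 1 member, Pfkp, rose and none fell, beside 4.26% and 3.24% of all genes. At 3 months the call of Aldoa was lost without replicate 2 of LacZ (-0.189) or either MGT library (-0.333 and -0.341). Leaving out 1 library of the 3-month or 18-month LacZ cells, which share the fit, gave 2 calls in neonatal cells (Hk2 or Pdk1 in addition). At 18 months 3 members passed instead of 5 without replicate 2 of LacZ or of MGT, and Pfkp was lost both times.

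Pfkp was the only member called at all 3 ages. It stood at 75.2 and 82.1 CPM with LacZ and 109 and 119 CPM with MGT in neonatal cells (0.54 ± 0.10, edgeR adjusted p = 0.00038), at 82.4 and 67.5 against 114 and 108 CPM at 3 months, and at 93.3 and 84.2 against 109 and 113 CPM at 18 months. Hk2 rose at 3 months from 184 and 158 to 233 and 222 CPM (0.41 ± 0.09, edgeR adjusted p = 0.000881). At the other end, Ldha fell at 3 months from 1060 and 1230 to 845 and 833 CPM (-0.45 ± 0.08, edgeR adjusted p = 0.000148). Pdk1 fell at 3 months from 42.6 and 38.6 to 19.3 and 17.7 CPM (-1.13 ± 0.15, edgeR adjusted p = 3.68e-06). The groups did not overlap for any of these 4 genes, nor for 51.7% of all genes in neonatal, 51.8% in 3-month and 57% in 18-month cells. Pkm, Hk1 and Slc2a1 passed the test at none of the 3 ages.

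The effect of MGT was not shown to differ between ages for any member. The interaction terms called 0 of 10 members in each of the 3 pairs of ages (edgeR), beside 3.7%, 2.82% and 2.34% of all genes called in either direction. The largest terms were those of Pdk1, -0.70 ± 0.22 for 3 months minus neonatal (edgeR adjusted p = 0.0958) and 0.79 ± 0.25 for 18 minus 3 months (edgeR adjusted p = 0.118). Without replicate 1 of the 3-month LacZ libraries, 4 members (Aldoa, Pgk1, Eno1 and Ldha) passed for 3 months minus neonatal, and Pdk1 passed without either 18-month LacZ library. For 18 minus 3 months 1 member passed without replicate 1 (Pfkp) or 2 (Pdk1) of the 3-month LacZ libraries, and Pdk1 without replicate 2 of the 18-month ones. The other pyruvate dehydrogenase kinase Pdk4 contrasted with Pdk1: it rose with MGT at each age, by 0.85, 2.77 and 2.02, from 7.74 and 8.75 to 52.2 and 60.6 CPM at 3 months. Cardiomyocyte markers rose beside these changes, from 9.59 and 10.1 CPM in sum with LacZ to 801 and 875 CPM with MGT at 3 months. Proliferation genes went from 1600 and 1520 to 1340 and 1260 CPM.

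**Figure D3:**
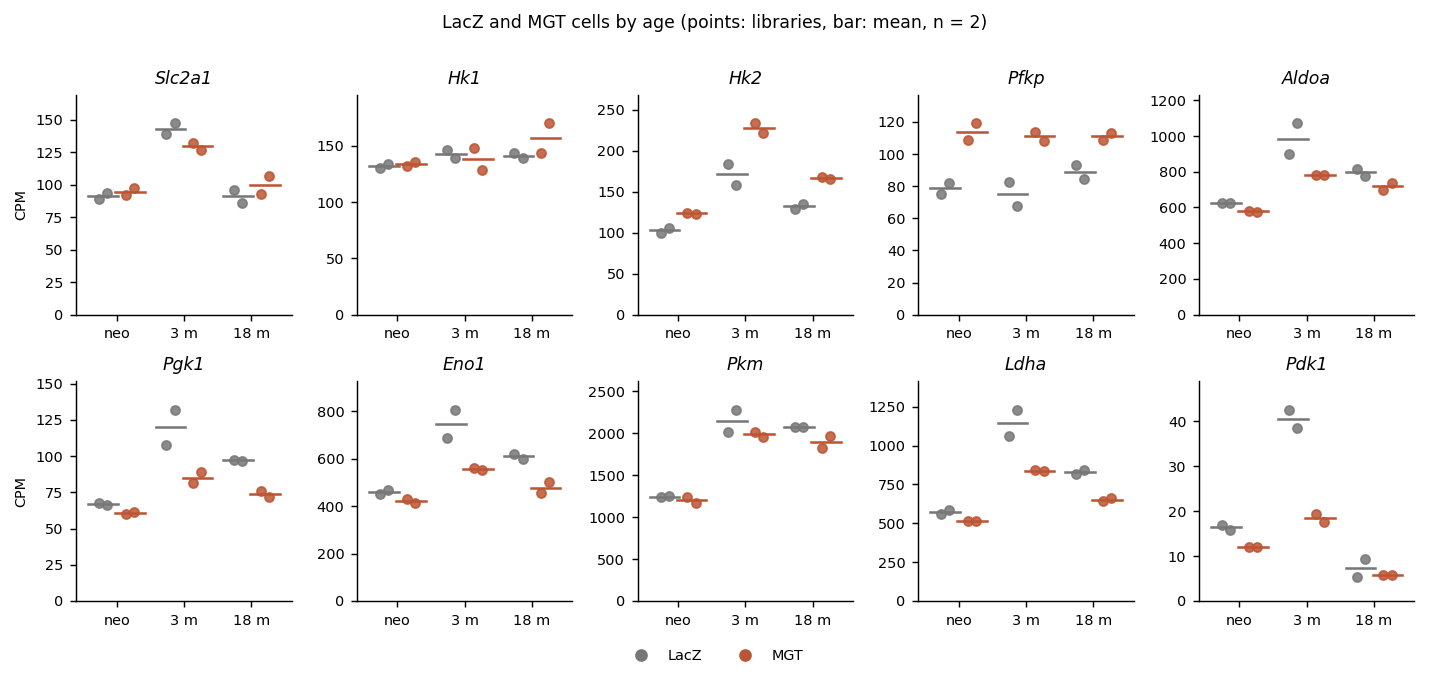
Levels (CPM) of the members (axis from 0) in neonatal (neo), 3-month and 18-month cells with LacZ (grey) or MGT (red); points are libraries and bars the mean of n = 2. Pfkp is higher with MGT at each age, and Pdk1 peaks at 3 months and is lowest at 18 months.

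With Nr4a3 overexpressed, Slc2a1, Hk1, Pfkp and Pdk1 rose. Of 10 members these 4 rose and none fell, beside 11.9% of all genes called up and 10.8% down. Pdk1 went from 20.6 and 24.5 CPM to 39.6 and 38.1 CPM (0.78 ± 0.13, edgeR adjusted p = 0.00508) and Hk1 from 99.9 and 87.4 to 131 CPM in both libraries (0.49 ± 0.11, edgeR adjusted p = 0.0141). Pfkp rose from 84.4 and 73.2 to 110 and 103 CPM and Slc2a1 from 77.6 and 87.8 to 113 and 101 CPM. The groups did not overlap for these 4, nor for 68.2% of all genes, and the call of Slc2a1 was lost with scaling by library size alone. Pgk1, at 90 and 121 against 82.9 and 71.7 CPM, just missed the threshold (-0.45 ± 0.15, edgeR adjusted p = 0.0543), and passed it with DESeq2 (adjusted p = 0.0374). Aldoa, Eno1, Pkm and Ldha overlapped between the groups, since the 2 OECtrl libraries differed from each other, at 711 and 877 CPM for Ldha and 125 and 169 CPM for Eno1. Pdk1 was the 1 member that passed when either OENr4a3 library was left out, while 8 passed (5 up, 3 down) without replicate 1 of OECtrl and 7 (6 up, 1 down) without replicate 2. Slc16a3 rose from 37.3 and 43.2 to 105 and 94.6 CPM (1.31 ± 0.12, edgeR adjusted p = 0.000246). Macrophage markers summed to 939 and 926 CPM in OECtrl and 623 and 604 CPM in OENr4a3, and epicardial ones to 1080 and 1130 against 522 and 488 CPM. Xist was at 282 and 224 CPM in OECtrl and 483 and 484 CPM in OENr4a3. The part of these differences in the members' values was not tested.

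With Nr4a3 knocked down in MGT cells, Hk2, Aldoa, Eno1, Pkm and Ldha fell and Hk1, Pfkp and Pdk1 rose. These were 5 and 3 of 10 members, in a comparison where 26.7% of all genes were called down and 27.9% up. Ldha fell from 129 and 131 CPM to 34.3 and 28.1 CPM, 4.17-fold (-2.06 ± 0.10, edgeR adjusted p = 3.78e-09). Pkm fell from 939 and 843 to 336 and 314 CPM (-1.46 ± 0.09, edgeR adjusted p = 2.14e-08), and Hk2 from 136 and 137 to 75.4 and 71.9 CPM (-0.89 ± 0.08, edgeR adjusted p = 1.03e-06). Aldoa and Eno1 fell by 0.39 and 0.27. The 2 groups did not overlap for any of these 5, nor for 77.3% of all genes.

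In the other direction, Hk1 rose from 119 in both libraries to 159 and 163 CPM, Pfkp from 117 and 122 to 161 and 155 CPM, and Pdk1 from 3.38 and 4.12 to 7.73 and 7.88 CPM (1.06 ± 0.19, edgeR adjusted p = 0.00035). Slc2a1, at 12.8 and 13.3 against 13.2 and 12.5 CPM, and Pgk1 did not pass. Hk1, Pfkp and Pdk1 were thus called up both when Nr4a3 was overexpressed in neonatal CFs and when it was knocked down in 3-month MGT cells. The experiments differ in age, day and transgenes. Without replicate 1 or 2 of OENr4a3 the overexpression calls of Hk1 (0.498 and 0.498) and Pfkp (0.396 and 0.487) were lost, unlike that of Pdk1. The call of Eno1 was lost without either shNT library.

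Several isoform pairs split in the knockdown. Ldhb, the heart-type lactate dehydrogenase, rose from 10.2 and 9.98 to 38.3 and 36.4 CPM (1.89 ± 0.11, edgeR adjusted p = 1.6e-08) where Ldha fell. Eno3, the muscle enolase, fell from 22.1 and 17.7 to 2.66 and 1.39 CPM (-3.30 ± 0.24, edgeR adjusted p = 4.8e-07), further than Eno1. Pfkm rose by 0.70 and Pfkl fell by 0.27. Among steps with no member, Tpi1 and Pgam1 rose by 0.61 and 0.82, whereas Gapdh fell by 0.48. The other glycolytic enzymes thus had 7 up and 5 down of 16 tested, the other HIF targets 10 up and 5 down of 16, and the citrate cycle 4 up and 5 down of 17. All 15 proliferation genes fell, from 568 and 604 to 312 and 296 CPM in sum. Cardiomyocyte markers summed to 12400 and 10700 CPM in shNT and 7490 and 6630 CPM in shNr4a3, with 3 of 8 called up and 2 down. Their part in the members' values was not tested.

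**Figure D4:**
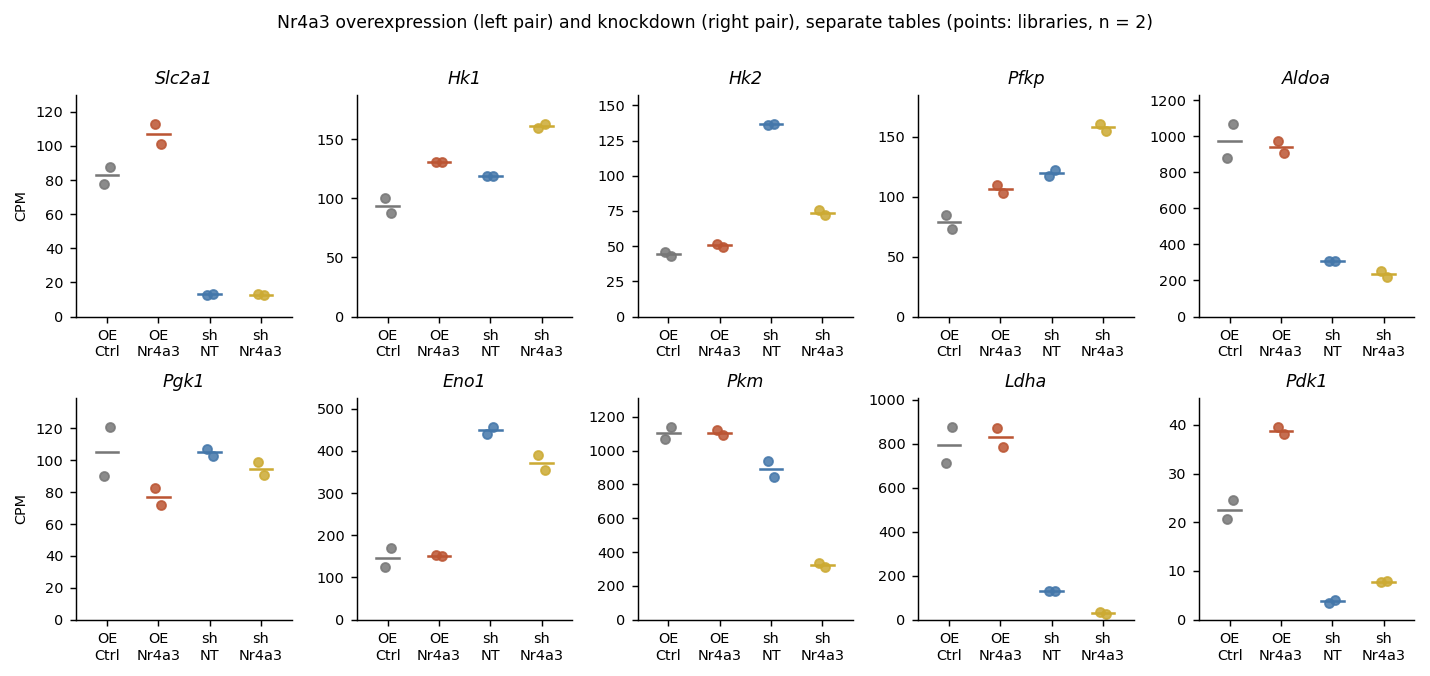
Levels (CPM) of the members (axis from 0) in OECtrl and OENr4a3 neonatal CFs (left pair) and in shNT and shNr4a3 3-month MGT cells (right pair), which come from separate tables; points are libraries and bars the mean of n = 2. Ldha, Pkm and Hk2 are lower with shNr4a3, and Pdk1, Hk1 and Pfkp are higher with both manipulations.

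Levels cannot be carried from one table to another. Pgk1 stood at 361 to 760 CPM in the CF libraries and 60.2 to 132 CPM in the LacZ and MGT ones, and Gapdh at 8.10 and 9.15 CPM in OECtrl against 191 and 190 CPM in shNT. Several members have near-identical copies elsewhere in the genome. Rows of such copies held 58.97 to 63.19% of the summed counts of Eno1 and its copies in the overexpression table, but 2.29 to 2.58% in the CF table. Adding the copies to the members changed 1 of 200 calls, that of Hk1 between 18-month and neonatal MGT cells, although Hk1 has no copies in these tables. Pfkp overlaps Pitrm1 on the other strand and Pkm overlaps Gm49759 on its own strand.

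Members also differed in how closely they followed the group. Over the 8 CF libraries, Eno1 and Pgk1 correlated most with the mean of the standardised members (Pearson's r 0.995 and 0.993) and Pfkp least (-0.117). Over the 12 LacZ and MGT libraries Ldha led (0.937) and Pfkp was again lowest (-0.178). Because each member is part of that mean and the libraries share ages, these are descriptions only. Of 9284 other genes ranked by the smaller of their 2 correlations, the 5 most alike were Mospd1 (0.916), the enolase copy Eno1b (0.898), Ak4 (0.894), Emb (0.891) and Rdh10 (0.887).

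The single reprogrammed cells gave a view by cell, with 1 library per age and therefore no test. After filtering, 3828 of 4816 neonatal and 5773 of 6796 24-month barcodes were kept, with a median of 13959 and 20771 UMIs (unique RNA molecules). The libraries shared 11 barcodes. Summed over the cells, 6 of 10 members were at least 1.5-fold higher at 24 months and none was 1.5-fold lower, beside 16.6% and 17.7% of the 16487 genes compared. Pdk1 differed most, at 6.13 against 13.9 CPM (ratio 2.27, 95% interval 2.08 to 2.47, for counting error only). Pkm stood at 487 against 946 CPM (1.94), Pgk1 at 248 against 453 CPM (1.83) and Ldha at 452 against 760 CPM (1.68). Slc2a1 was at 30.3 against 47.5 CPM and Eno1 at 219 against 340 CPM. Hk1 (0.961), Hk2 (0.968) and Pfkp (0.875) had ratios a little below 1. Slc16a3 was at 10.4 against 45.5 CPM, and 9 of 16 other HIF targets were at least 1.5-fold higher and 1 lower. None of 17 citrate cycle genes was 1.5-fold higher and 2 were lower. The mix of cells differed between the libraries. At 24 months 7 of 7 cardiomyocyte, 7 of 7 epicardial and 7 of 8 endothelial markers were at least 1.5-fold lower, such as Tnnt2 at 72.9 against 4120 CPM, and 6 of 8 macrophage and 6 of 8 fibroblast markers were higher, such as Lyz2 at 2180 against 594 CPM. The part of this mix in the members' ratios was not tested.

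**Figure D5:**
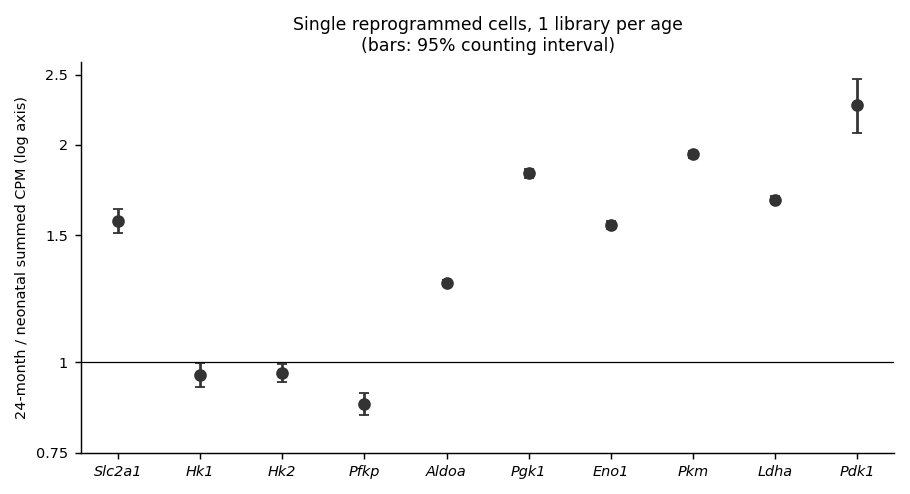
Ratio of the summed level in 24-month to neonatal single reprogrammed cells for each member (log axis), with 95% counting intervals and 1 library per age. The ratio is 1.55 or more for Slc2a1, Pgk1, Eno1, Pkm, Ldha and Pdk1, and slightly below 1 for Hk1, Hk2 and Pfkp.

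The cells were clustered without the pathway genes into 14 clusters, whose names here are rebuilt from markers. Of these, 4 held at least 50 cells of both libraries, and since each age is 1 library, age and library cannot be told apart in them. In macrophage-like cells, 203 neonatal and 807 aged, Pkm stood at 705 against 1240 CPM, Eno1 at 147 against 324 CPM and Hk2 at 51.2 against 39.8 CPM. In the cycling cluster led by Hmmr and Ube2c, with 118 neonatal and 198 aged cells, Pkm stood at 530 against 881 CPM, Eno1 at 245 against 366 CPM and Hk2 at 45.4 against 78.4 CPM. A shallow cluster led by AY036118 and Tgfb3, with 1357 neonatal and 92 aged cells, had 481 against 1050 CPM of Pkm and 295 against 543 CPM of Eno1. The counting intervals of Hk2 overlapped there, at 22.4 and 16.0 CPM. In a cluster led by noncoding RNAs such as Malat1, with 83 and 182 cells, Pkm was at 239 against 401 CPM, while the counting intervals of Eno1 overlapped, at 107 and 140 CPM. Pkm was thus higher in the 24-month library in each of the 4. By counting intervals, 9 members were higher and 1 lower at 24 months in the macrophage-like cells. In the cycling cluster 8 were higher and 2 overlapped. In the shallow cluster 5 were higher and 5 overlapped, and in the Malat1 cluster 2 were higher and 8 overlapped. The share of all genes with such a difference is not given here. Tnnt2, a cardiomyocyte gene, was at 736 against 3.95 CPM in the macrophage-like cells, and the part of RNA from other cells in these levels was not tested. The large clusters of fibroblast-marker cells were split by library.

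Between clusters of the neonatal library, members took different levels. The 250 cardiomyocyte-like cells had 1310 CPM of Aldoa and 724 CPM of Ldha, against 500 and 414 CPM in the largest deeply read cluster, which was led by Ptprz1 and Crct1 and held 1151 cells. Their median depth was 1919 UMIs against 55571 UMIs. The 527 neonatal cells of a cluster led by Nppa, Myh6 and Tnni3 had 132 CPM of Hk2 against 58.6 CPM there, and 61.3 against 38.1 CPM of Hk1. In that cluster 8 of 8 cardiomyocyte markers were found, with a median 5.4 log2 units above the rest, against 3.6 in the cardiomyocyte-like cells. It was left unnamed by the rule used, because 6 of 8 fibroblast markers were found as well. A cluster led by Malat1 and other noncoding RNAs had little Aldoa (117 CPM) and Ldha (72.3 CPM) in its 83 neonatal cells, but 134 CPM of Hk2. In the 24-month library the same cluster had 282 CPM of Hk2 in 182 cells. Doublets were not removed from either library.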

How the data were processed

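The 28 bulk libraries come as 4 tables of raw counts per gene, as deposited, and each was scaled and fitted on its own. The submitters' processing notes name Trimmomatic 0.36, featureCounts (Subread 1.5.1), SAMtools and mm10; the aligner is not given in the sources used here. Exonic length is the authors' deposited value per gene (unit: other), used for CPM per kb. The deposited FPKM columns (24) were not used, and 4 deposited count columns that match no sample were left out. The labels name poly(A) RNA and also rRNA depletion with a stranded kit, but the strand setting of the counting is not stated. Single-cell files hold whole-number counts per gene and barcode, as deposited by the authors, and are tied to the samples by the age in their names. Columns named 13 and 15 months, GFP and D3 were taken as the labels' 12 and 18 months, OECtrl and MGT. For the overexpression, day 10 stands in the labels and day 7 in the design text. Gene positions of the CF and overexpression tables differ from GRCm38, so genes were matched through identifiers or symbols.

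Each table was fitted over all its groups with edgeR 4.0.16 in R 4.3.3 (filterByExpr, TMM, 1 coefficient per group, robust quasi-likelihood), with Benjamini-Hochberg adjustment over all genes, in 20 comparisons. The code was tested on simulated counts. Alternatives were DESeq2 1.42.0, library size alone, no filter on low counts, a replicate block, leaving out each library and, chosen after seeing the data, adding near-identical copies (blastn 2.17.0, at least 90% identity over 200 bases). Single cells (scanpy 1.11.5) were kept at 500 genes or more and at most 20% mitochondrial counts, and clustered at Leiden resolution 0.5 on 2000 variable genes. A cluster was named when at least 3 markers of a type were found in 25% of its cells, with a median 2 log2 units above the rest. Intervals are exact at 95%. Aldoa has 2 rows in 3 tables, and the one with reads was used.

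The named genes are all 10 members, the steps and isoforms they leave out, the lactate exporter and 4 regulators, up to 3 of another list by smallest p, and the 5 genes most alike (log2 of CPM + 1, average log2 CPM of at least 3 in both tables). The members and lists were chosen with earlier results of these data known.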

Additional observations from a re-analysis of the deposited data

Results flagged for a closer look

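For none of the 10 members did the interaction terms of the fit show that the effect of MGT differed between ages. Among the related genes named by rule they did for 7, tested with edgeR and given as the difference of log2 fold changes ± SE. The rule also named Gpi1, Tpi1, Gapdh, Pgam1, Slc2a4, Pfkm, Aldoc, Eno2, Ldhb, Pdk2, Pdk3, Myc and Txnip, for which no term passed. Of all genes, 3.7% were called for 3 months minus neonatal, 2.82% for 18 months minus neonatal and 2.34% for 18 minus 3 months. For 3 months minus neonatal the term was 1.92 ± 0.19 for Pdk4 (edgeR adjusted p = 2.45e-07), 1.08 ± 0.25 for Slc2a3 (0.0103), 0.77 ± 0.21 for Eno3 (0.0375), -0.57 ± 0.12 for Pfkl (0.0062), -0.54 ± 0.15 for Slc16a3 (0.0399) and -0.42 ± 0.12 for Hif1a (0.0446). For 18 months minus neonatal it was 1.16 ± 0.18 for Pdk4 (0.000242) and 0.68 ± 0.16 for Pfkfb3 (0.0133). For 18 minus 3 months it was -0.76 ± 0.19 for Pdk4 (0.0283) and 0.68 ± 0.16 for Pfkfb3 (0.0166).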

How the results depend on the processing

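Of the 200 member results (10 genes in 20 comparisons), DESeq2 left 195 on the same side of the threshold, with the same direction where called. Scaling by library size alone left 193, no filter on low counts 195, the added copies 199 and the replicate block 197. The replicate numbers did not pair the libraries: deviations of replicate 1 from its group mean correlated between groups, over genes, at -0.0776 to 0.0694. With the replicate block the call of Hk1 between 3-month and neonatal CFs (adjusted p = 0.0608) and that of Pdk1 between 12 and 3 months (adjusted p = 0.0511) were lost, and Pgk1 passed in the overexpression (adjusted p = 0.0152). Without the filter on low counts, Pdk1 alone passed for the MGT effect in 3 months minus neonatal (-0.69) and in 18 minus 3 months (0.77), so 1 member was called in each. Leaving out 1 library gave, in members called, ranges of 3 to 5 for CFs at 12 against 3 months and 6 to 10 at 24 against 12 months, 4 to 8 for LacZ at 18 against 3 months, 4 to 8 for MGT at 18 months against neonatal and 4 to 6 at 18 against 3 months, 1 to 2 for MGT against LacZ in neonatal, 6 to 8 in 3-month and 3 to 6 in 18-month cells, 0 to 4 for the MGT effect in 3 months minus neonatal and 0 to 1 in 18 minus 3 months, 1 to 8 for the overexpression and 7 to 9 for the knockdown. For CFs at 24 against 3 months the range was 8 to 10, with Hk2 or Pfkp lost. In the overexpression, leaving out 1 library gave -0.15 to 0.28 for Eno1 and -0.12 to 0.21 for Tpi1. Both were reversed without replicate 1 of OECtrl (adjusted p = 0.0269 and 0.0344). The cause of these changes was not tested. The 10 single-cell ratios moved by less than their counting interval with all deposited barcodes and with at most 10% mitochondrial counts. With 2 libraries per group, a fit that leaves out 1 assumes that the lone library varies like the other groups.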
